A study of Mus musculus with 24 samples.

Results

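The numbered Zfp genes are mouse genes whose symbol is Zfp followed by digits, and nearly all of them encode zinc finger proteins. The 239 members were the Zfp transcripts that were listed in each of the 8 count tables and that had a mean of at least 3 CPM (counts scaled to the size of the library) over the 3 RNA-seq libraries of vehicle-treated control cells. They belong to 238 genes, since Zfp91 has 2 transcripts, and they make up 239 of the 288 numbered Zfp transcripts in all 8 tables and of the 10506 transcripts of any name there. The members were thus chosen by their mRNA level in those 3 libraries, which is given only as a description, and by their listing. Of 326 numbered Zfp transcripts in at least 1 table, 38 were not in all 8. The paper kept a transcript in a pair if it exceeded 1 CPM in every replicate of either condition. Levels in KO cells, after Torin1 and in footprints may therefore also have entered the choice. Just inside the threshold lay Zfp229 at 3.09 CPM, Zfp442 at 3.09 CPM and Zfp583 at 3.11 CPM, and just outside it Zfp691 at 2.96 CPM, Zfp945 at 2.94 CPM and Zfp966 at 2.79 CPM.

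The study used N2a cells, a mouse neuroblastoma line, to ask how loss of the cap-binding factor eIF4E3 changes mRNA levels and ribosome occupancy when mTOR is inhibited. The control line (ctrl, labelled WT) carried the empty Cas9 vector, and the KO line had received the same vector with guide RNAs against several exons of Eif4e3 and was kept as a drug-selected population, not as a clone. Each line was treated for 2 h with the solvent DMSO or with 250 nM Torin1, an inhibitor of the mTOR kinase, which gives 4 conditions, and both lines had gone through repeated transfection and puromycin selection. RNA-seq and ribosome profiling (Ribo-seq, which counts the mRNA fragments, or footprints, that ribosomes protect) were made in 3 replicates that the labels describe as different passages, and Ribo-seq ctrl DMSO replicate 2 was not analysed here.

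A classical C2H2 zinc finger is a short fold held by a zinc ion between a pair of cysteines and a pair of histidines. Arrays of such fingers, joined by a conserved linker, read DNA sequence, and many mouse arrays follow a KRAB box, a domain that recruits the corepressor Trim28 and with it H3K9 methylation to retroelements and imprinted loci. KRAB genes lie in clusters of recent duplicates, so their coding sequences resemble each other, and some Zfp genes do other work, in RNA decay, ribosome quality control or ribosome assembly.

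The linker between fingers is a conserved part of these genes, and where its nucleotides are identical between genes this bears on the counts, because a read inside an identical stretch cannot be assigned to 1 gene. The sequences that follow are 28-nt stretches of coding exon (the shortest fragment that the study cut from the gel), read 5′ to 3′ on the coding strand from the mouse genome (mm10) with the GENCODE M21 annotation, with the 7 linker codons in capitals. They were chosen as the stretch found in the most genes and 1 stretch from each of 6 members described in the results.
Zfp944, chr17:22339544-22339571, minus strand, in 30 genes: attCATACAGGAGAGAAACCTTACaaat
Zfp932, chr5:110008978-110009005, plus strand, in 28 genes: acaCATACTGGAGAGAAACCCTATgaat
Zfp958, chr8:4629186-4629213, plus strand, in 28 genes: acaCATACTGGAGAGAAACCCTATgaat
Zfp948, chr17:21587334-21587361, plus strand, in 2 genes: cttCATACTGGAGAGAAACCTTACaaat
Zfp68, chr5:138607021-138607048, minus strand, in 1 gene: actCACACTGGTGAGAAGCCCTATgaat
Zfp799, chr17:32820534-32820561, minus strand, in 1 gene: atcCACACTGGTGAGAAGCCCTATatgt
Zfp62, chr11:49215600-49215627, plus strand, in 1 gene: atcCATACTGGGGAAAAGCCCTATaagt
The Zfp932 and Zfp958 stretches are identical, and those of Zfp68, Zfp799 and Zfp62 occur in no other gene among the transcripts searched. Only transcripts annotated as protein-coding were searched, for the gene counts above and for all counts of shared stretches. Only exact matches of 28 nt were counted. The study also kept Ribo-seq reads shorter than 28 nt, so sharing over shorter or nearly identical stretches is not covered. A linker-coding stretch was found in 164 members, and 218 of their 936 stretches were also in another gene. Over the whole coding sequence, 81 members shared no 28-nt stretch with another protein-coding gene, 56 shared over 5% of theirs and 22 over 20%. The share was 78.8% in Zfp932, 53.7% in Zfp994, 18.01% in Zfp958 and 0.557% in Zfp68.

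In the annotation, 237 of the 239 members were matched by transcript identifier (all but Zfp827 and Zfp869). At least 1 C2H2 finger was found in 230 of them, with a median of 10 fingers, and 132 members had at least 10. None was found in Zfp36, whose fingers are of the CCCH type, nor in Zfp330, Zfp365, Zfp451, Zfp467, Zfp503 and Zfp839. The search was by pattern in the listed transcript only. It does not show that these genes encode no C2H2 finger in a divergent form or in another transcript. A KRAB box was found in 121 members, with a median of 12 fingers, and not in 116, with a median of 7. Chromosome 7 held 66 members, 39 of them with a KRAB box, and chromosome 17 held 28, with 22. The members' coding sequences were longer than those of all transcripts in the 8 tables (medians 1743 and 1383 nt) and their 5′ leaders too (218 and 172 nt), and 62.9% against 50.6% of leaders held an ATG. Coding GC was lower in members with a KRAB box (median 44.2%) than in those without (54.8%) and in all transcripts (52.7%).

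The 12 RNA-seq libraries held 17047795 to 28910907 counts and the 11 Ribo-seq libraries 669010 to 5284909, so that the median member had 217 to 484 counts in an RNA-seq library and 6 to 52 in a Ribo-seq library. Ribo-seq ctrl DMSO replicate 3 was the shallowest, with a median of 6 footprints per member and 65 members at 3 or fewer. Eif4e3 itself stood at 12.0 to 18.2 CPM in ctrl mRNA and at 2.88 to 5.04 CPM in KO mRNA. Of 16 sympathetic neuroblastoma markers, 13 were in the tables and each had a median of at least 1 CPM, with a summed level of 3523 to 4586 CPM per library, while the 2 of 6 fibroblast markers in the tables summed to 1.26 to 2.71 CPM, the 1 of 4 Schwann cell markers to 0.687 to 2.08 CPM and the 1 of 4 blood markers to at most 0.245 CPM. Levels come from whole cultures, in which fewer cells of a type and less RNA per cell cannot be told apart.

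The members took a larger share of all counts after Torin1, in mRNA and more so in footprints. Their share of the mRNA counts was 0.509%, 0.429% and 0.526% in ctrl DMSO and 0.588%, 0.614% and 0.584% in ctrl Torin1. In KO cells it was 0.580%, 0.504% and 0.569% in DMSO and 0.619%, 0.642% and 0.624% in Torin1. The Torin1 libraries were above the DMSO libraries in both lines with no overlap, and replicate 2 was the lowest of the DMSO libraries in both. In footprints the share was 0.331% and 0.367% in ctrl DMSO against 0.497%, 0.538% and 0.529% in ctrl Torin1. In KO cells the footprint share was 0.345%, 0.357% and 0.359% in DMSO against 0.590%, 0.620% and 0.639% in Torin1, again without overlap. The highest footprint shares were those of the KO Torin1 libraries. These are shares of unscaled library totals. Without scaling beyond library size, the median transcript also gained footprints after Torin1, by 0.23 (log2) in ctrl and 0.26 in KO cells. The members' medians there were 0.62 and 0.77, so part of the footprint gain is not particular to them. In mRNA the median transcript gained 0.06 and 0.02, and the members 0.33 and 0.22. The ctrl DMSO mRNA libraries also chose the members, so the ctrl mRNA shares are a description.

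By level per kb of coding sequence in ctrl DMSO mRNA, the 5 most abundant members lacked a KRAB box. Zfp706 stood at 175 CPM per kb, Zfp207, a kinetochore and spindle protein, at 126, Zfp593, a pre-ribosome factor, at 110, Zfp277 at 75.6 and Zfp330 at 72.3. The ratio of footprint CPM to mRNA CPM, the translational efficiency (TE), was taken between libraries of the same replicate number. In ctrl DMSO, ranked by the ratio of mean levels among members with at least 10 footprints in both libraries, the highest TE was that of Zfp871 (2.77 and 4.02 in replicates 1 and 3), Zfp825 (2.93 and 5.59) and Zfp84 (2.52 and 2.87). The lowest was that of Zfp423, a developmental transcription factor (0.273 and 0.235), Zfp646 (0.178 and 0.345) and the shorter transcript of Zfp91, a ubiquitin ligase of NF-kB signalling (0.260 and 0.255). The order within the high and the low trio is not separated by these replicates. Zfp423 kept a TE of 0.254 ± 0.0265 (SD, n = 2) in ctrl DMSO, 0.294 ± 0.0641 (n = 3) in ctrl Torin1, 0.250 ± 0.0260 (n = 3) in KO DMSO and 0.218 ± 0.0206 (n = 3) in KO Torin1.

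As a group, members with a KRAB box carried more footprints per mRNA than the other members in each replicate of each condition. The median TE of the 121 KRAB members was 0.856 and 0.883 in ctrl DMSO, 1.07, 1.15 and 1.16 in ctrl Torin1, 0.926, 1.19 and 1.00 in KO DMSO, and 1.37, 1.23 and 1.42 in KO Torin1. The median of the 116 members without a KRAB box was 0.595 and 0.622 in ctrl DMSO, 0.621, 0.621 and 0.652 in ctrl Torin1, 0.488, 0.619 and 0.525 in KO DMSO, and 0.639, 0.683 and 0.751 in KO Torin1. All transcripts had medians between 0.906 and 0.954 in every replicate, so KRAB members lay below them in ctrl DMSO and above them in KO DMSO (narrowly in replicate 1) and after Torin1, while the other members stayed below throughout. KRAB members also differ in coding GC and in shared sequence, and the part of either in their TE was not tested.

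**Figure D1:**
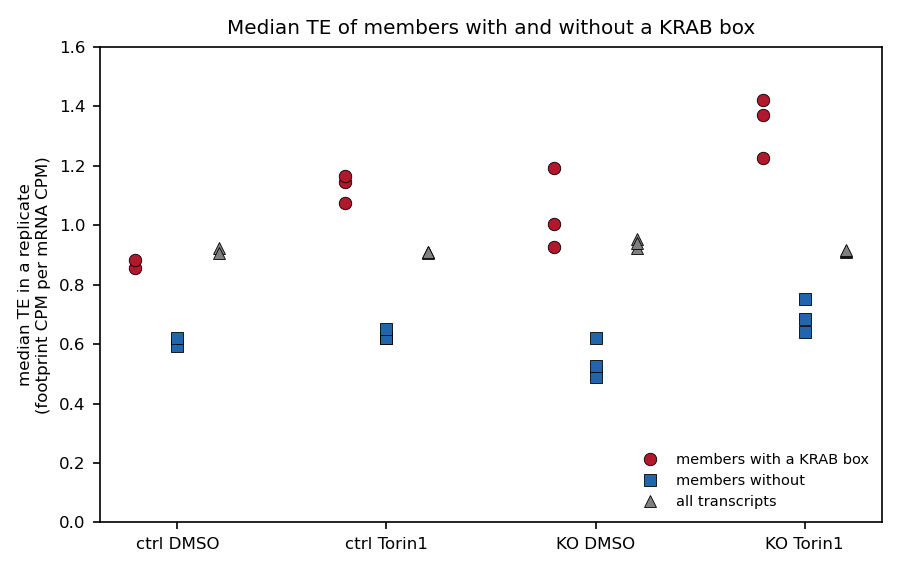
Median TE (footprint CPM per mRNA CPM, y axis from 0) of members with a KRAB box, members without one and all transcripts, 1 point per replicate, in the 4 conditions. KRAB members lie between 0.856 and 1.42, members without a KRAB box between 0.488 and 0.751, and all transcripts between 0.906 and 0.954.

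After Torin1 a minority of members were called higher in mRNA and few were called lower. Most changes lay above 0, in 198 of 239 members in ctrl cells and 192 in KO cells. In ctrl cells 14 of 239 members passed the edgeR quasi-likelihood test (adjusted p under 0.05 over all transcripts), 13 higher and 1 lower, where 2.73% of all 10958 transcripts tested were called, 2.05% of them higher. In KO cells 37 of 239 were called, 34 higher and 3 lower, against 9.97% of 11004 transcripts, 6.23% higher. The median log2 fold change of the members was 0.28 in ctrl cells (quartiles 0.06 and 0.51) and 0.20 in KO cells (0.05 and 0.37), where the medians over all transcripts were 0.00 in both, and 183 members lay above 0 in both lines. The ctrl DMSO libraries that enter the ctrl comparison also chose the members, so that comparison is a description. The KO comparison used none of these libraries, though the listing in all 8 tables may also depend on KO levels. The counts depended on the fit and on single libraries. With the replicate number as a block 64 members were called in ctrl cells (12.1% of all transcripts) and 65 in KO cells (16.3%). In ctrl cells the count fell to 6 without ctrl DMSO replicate 1, to 4 without ctrl Torin1 replicate 1 or 2 and to 8 without ctrl Torin1 replicate 3, and rose to 41 without ctrl DMSO replicate 3. In KO cells it was 18, 13 and 15 without KO Torin1 replicate 1, 2 and 3.

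**Figure D2:**
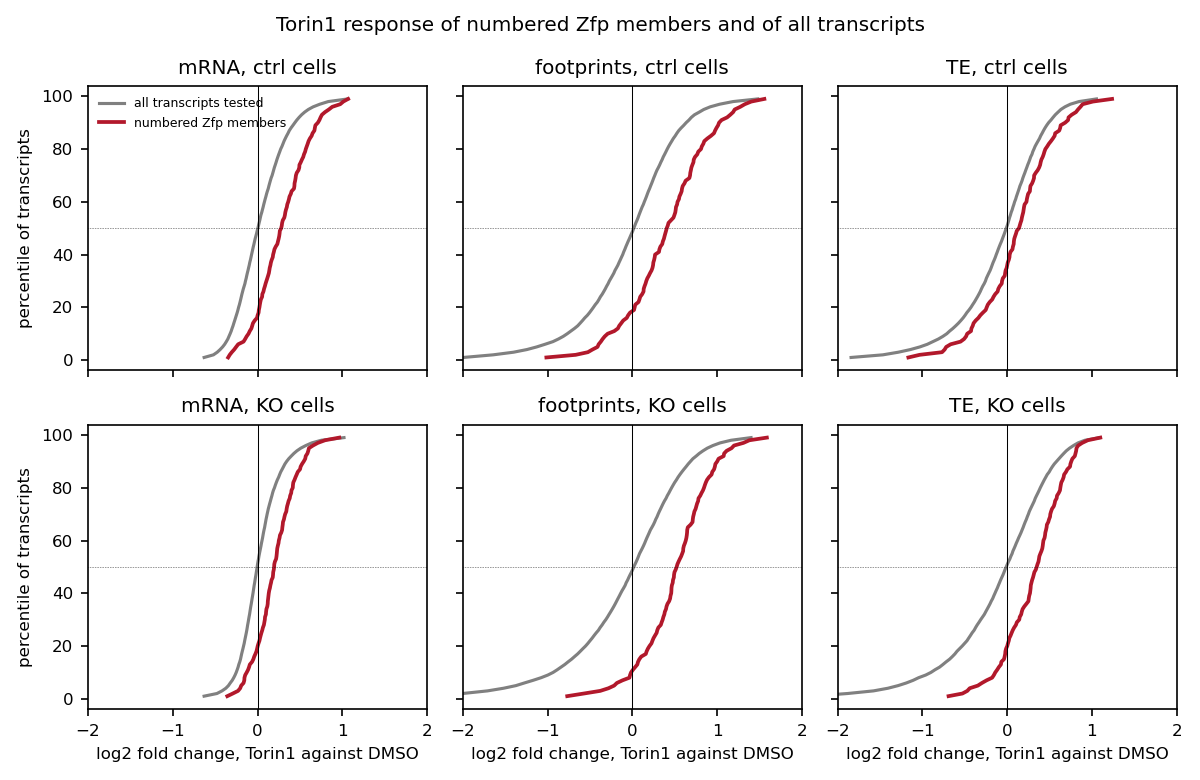
Percentile of transcripts (y axis) against the log2 fold change of Torin1 against DMSO (x axis, drawn from -2 to 2) for members (red) and all transcripts tested (grey), by assay and cell line. At the 50th percentile the members lie at 0.28, 0.41 and 0.14 in ctrl cells for mRNA, footprints and TE, and at 0.20, 0.52 and 0.35 in KO cells, with all transcripts within 0.02 of 0.

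Zfp36 (chr7:28376784-28380253, minus strand), which encodes tristetraprolin, a protein that binds AU-rich elements and triggers mRNA decay, had the largest rise in mRNA in both lines. Its mRNA was 4.48, 6.04 and 5.58 CPM in ctrl DMSO and 12.8, 14.7 and 12.4 in ctrl Torin1, and 4.10, 5.31 and 4.91 in KO DMSO and 13.2, 14.2 and 12.6 in KO Torin1. Both pairs of groups were far apart, and the levels of the 2 lines after Torin1 overlapped. The log2 fold change was 1.31 ± 0.175 (SE, adjusted p = 0.0014, edgeR) in ctrl cells and 1.48 ± 0.139 (adjusted p = 4.47e-05) in KO cells. Zfp799, a KRAB gene with 17 fingers, rose from 6.16, 3.53 and 4.51 CPM to 12.7, 12.4 and 9.81 in ctrl cells. In KO cells it went from 5.68, 4.64 and 7.30 CPM to 12.2, 11.7 and 11.3, log2 fold changes of 1.29 ± 0.216 (adjusted p = 0.0080) and 0.99 ± 0.159 (adjusted p = 0.00258, edgeR).

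Zfp420 (chr7:29859979-29877292, plus strand), with 19 fingers, was the member whose mRNA fell in both lines. It stood at 9.71, 6.38 and 9.36 CPM in ctrl DMSO and 2.59, 3.36 and 1.94 in ctrl Torin1, and at 10.6, 7.41 and 12.5 in KO DMSO and 3.38, 3.26 and 2.45 in KO Torin1. No Torin1 library reached the lowest DMSO library, and the log2 fold changes were -1.68 ± 0.244 (adjusted p = 0.00271) and -1.75 ± 0.207 (adjusted p = 3.15e-04, edgeR). Its footprints were too few to follow, with 0.959 and 0 CPM in ctrl DMSO and 1.45, 1.39 and 1.70 in ctrl Torin1, and with 4, 23 and 10 counts in KO DMSO and 7, 7 and 3 in KO Torin1 (-0.36 ± 0.478, adjusted p = 0.583, edgeR). The other members that fell in KO cells fell little, Zfp574 by 0.36 ± 0.0921 (adjusted p = 0.0308) and Zfp639 by 0.35 ± 0.0949 (adjusted p = 0.0394, edgeR) on the log2 scale, and both calls were lost without several single libraries, KO Torin1 replicates 1, 2 and 3 among them.

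Among the other largest rises in mRNA, Zfp882, a KRAB gene, went from 3.04, 2.99 and 3.63 CPM to 7.20, 6.98 and 6.28 in ctrl cells (1.09 ± 0.187, adjusted p = 0.00982, edgeR). That call was lost without ctrl DMSO replicate 1 or ctrl Torin1 replicate 1 or 2. Zfp626 in ctrl cells rose by 1.03 ± 0.242 (adjusted p = 0.0451, edgeR), a call lost in 5 of 6 fits that each left out a library and in the fit without scaling, though the gene was also called in KO cells. In KO cells Zfp839 went from 4.19, 4.24 and 2.27 CPM to 6.51, 8.89 and 7.01 (1.09 ± 0.230, adjusted p = 0.0127, edgeR), and without KO Torin1 replicate 2 it was not called. Zfp994, a KRAB gene on chromosome 17 with over 50% shared sequence, went from 5.54, 2.26 and 4.38 CPM to 7.75, 8.36 and 7.26 (0.92 ± 0.238, adjusted p = 0.032, edgeR) and was not called without any of the 3 KO Torin1 libraries. The members called higher in both lines were Zfp7, Zfp36, Zfp65, Zfp217, Zfp608, Zfp626, Zfp655, Zfp719, Zfp740 and Zfp799, which is 10 of the 13 in ctrl and of the 34 in KO cells. How many of all transcripts were called in both lines is not given here.

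With edgeR more members were called higher in footprints than in mRNA, and hardly any was called lower in footprints. In ctrl cells DESeq2 (7 called in footprints and 36 in mRNA) and the replicate block (20 and 64) gave the opposite order. In KO cells both kept it (67 and 53, and 102 and 65). Changes above 0 numbered 194 in footprints and 198 in mRNA in ctrl cells, and 213 and 192 in KO cells. In ctrl cells 29 of 239 members were called, all higher, against 15.6% of 10693 transcripts, 5.69% higher and 9.93% lower. In KO cells 91 of 238 were called, 89 higher (37.4% of the members) and 2 lower, against 40.6% of 10822 transcripts, 18.5% higher and 22.1% lower. The members' median log2 fold change was 0.41 in ctrl cells (quartiles 0.12 and 0.72) and 0.52 in KO cells (0.29 and 0.78), with all transcripts at 0.02 in both. Without scaling beyond library size the median of all transcripts moved to 0.23 in ctrl and 0.26 in KO cells and that of the members to 0.62 and 0.77, so the members stayed above all transcripts by a similar distance. The 24 members called higher in both lines are 24 of the 29 in ctrl and of the 89 in KO cells. They include Zfp36, Zfp59, Zfp62, Zfp217, Zfp292, Zfp568, Zfp608, Zfp638, Zfp644, Zfp799 and Zfp948. For footprints too, the share of all transcripts called in both lines is not given. The ctrl count rests on the 2 ctrl DMSO libraries. It was 4 without ctrl DMSO replicate 1, which leaves only the shallow one, 9 without ctrl Torin1 replicate 2 or 3, and 7 with DESeq2, which called 67 in KO cells and in ctrl cells gave no adjusted p for 141 of the 239 members, 9 of the 29 among them.

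The 2 genes with the largest mRNA rises in ctrl cells were also among the largest in footprints. Zfp799 footprints were 4.79 and 4.87 CPM in ctrl DMSO, from 20 and 3 counts, and 14.5, 24.5 and 16.5 in ctrl Torin1 (1.96 ± 0.388, adjusted p = 0.00179, edgeR). In KO cells they went from 5.53, 8.99 and 7.30 CPM to 18.9, 24.4 and 27.4 (1.61 ± 0.253, adjusted p = 4.71e-06, edgeR). The ctrl call was lost without ctrl DMSO replicate 1, whereas the KO call held without each library in turn. Zfp36 footprints went from 2.77, 3.97 and 2.43 CPM to 10.1, 9.57 and 11.4 in KO cells (1.66 ± 0.348, adjusted p = 2.63e-04, edgeR). In ctrl cells they went from 3.12 and 1.62 CPM, the latter a single count, to 7.96, 10.6 and 6.24 (1.53 ± 0.485, adjusted p = 0.0389, edgeR). That ctrl call was lost with the replicate block (1.45, adjusted p = 0.13) and without any of its 5 libraries.

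**Figure D3:**
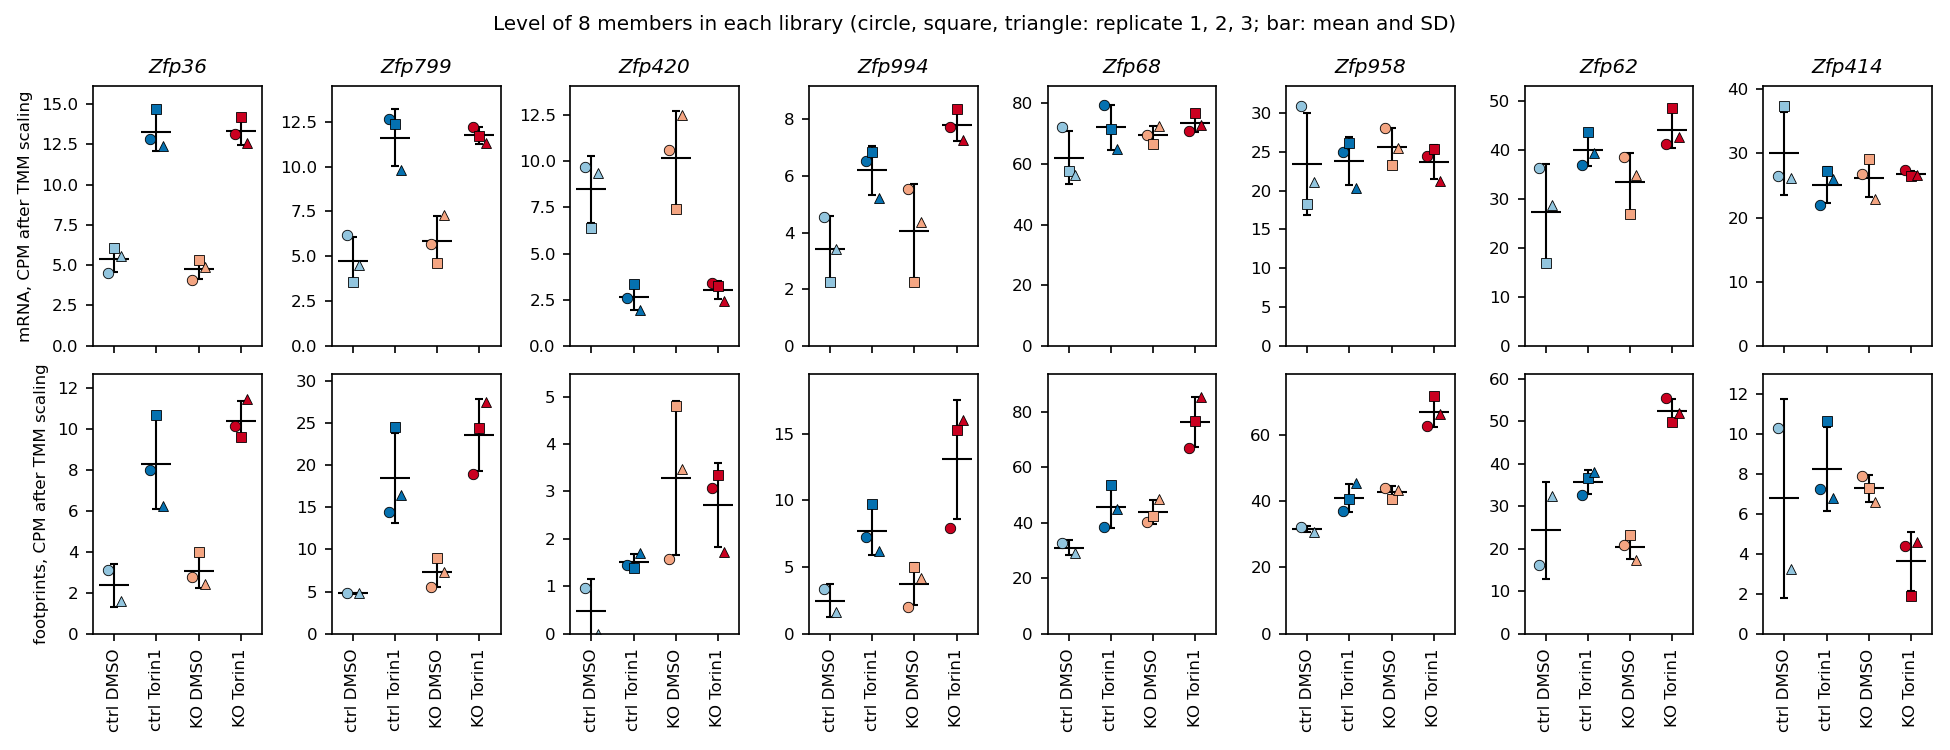
Level of 8 members in each library in CPM after scaling (y axes from 0), mRNA in the upper and footprints in the lower row, with circle, square and triangle for replicates 1, 2 and 3 and bars for the mean and SD. Zfp36 and Zfp799 are higher after Torin1 in both assays, Zfp420 mRNA is lower, and Zfp68, Zfp958 and Zfp62 have their highest footprints in KO Torin1, at 49.8 to 85.2 CPM, with mRNA levels that overlap between the lines.

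Zfp608 had the smallest adjusted p of the named rises in KO footprints, from 21.7, 25.9 and 24.3 CPM to 79.3, 77.1 and 57.2 (1.54 ± 0.162, adjusted p = 2.1e-09, edgeR). Its mRNA rose too, from 39.0, 28.1 and 33.6 CPM to 59.1, 60.9 and 61.3 (0.85 ± 0.107, adjusted p = 5.03e-04), and so did its TE (0.70 ± 0.194, adjusted p = 0.00861, edgeR). Zfp994 footprints in KO cells went from 1.98, 5.02 and 4.17 CPM to 7.93, 15.3 and 16.01 (1.68 ± 0.348, adjusted p = 2.37e-04, edgeR). In ctrl cells Zfp59, a KRAB gene, went from 5.03 and 3.24 CPM to 12.3, 14.3 and 17.03 (1.62 ± 0.387, adjusted p = 0.00756, edgeR), and Zfp386, also a KRAB gene, from 3.83 and 3.24 to 10.9, 6.94 and 14.8 (1.502 ± 0.464, adjusted p = 0.0347, edgeR). Both were lost without ctrl DMSO replicate 1, and Zfp386 also without ctrl Torin1 replicate 1 or 3.

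The 2 members whose footprints fell in KO cells carry no KRAB box. Zfp593, a small nuclear protein of pre-60S ribosome assembly, went from 31.6, 32.2 and 26.1 CPM to 20.7, 12.9 and 20.01 (-0.77 ± 0.205, adjusted p = 0.00312, edgeR), a call kept without each library in turn. In ctrl cells its footprints were 27.3 and 21.1 CPM in DMSO and 14.5, 17.6 and 21 in Torin1 (-0.52 ± 0.266, adjusted p = 0.199, edgeR), groups that barely separate. Zfp414 went from 7.90, 7.32 and 6.60 CPM to 4.41, 1.91 and 4.57 in KO cells (-1.02 ± 0.384, adjusted p = 0.0332, edgeR), from 10, 4 and 8 footprints in the Torin1 libraries. That call was lost without KO DMSO replicate 1 or 2, without KO Torin1 replicate 2, without scaling and with DESeq2.

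In KO cells 26 members were called higher in both mRNA and footprints, and 63 in footprints without a call in mRNA. In ctrl cells the corresponding counts were 7 and 22. Joint counts over all transcripts are not given here, so such overlaps between assays are not shown to be particular to the members. A missing call in mRNA does not show that the mRNA was unchanged, and the test of the difference is the TE test, which compares footprints and mRNA in 1 model. No member passed it in ctrl cells (edgeR, 12 members at an unadjusted p under 0.05, 0 by DESeq2, which gave no adjusted p for 116 of the 239), where 4.68% of 10432 transcripts were called. An unadjusted p under 0.05 was found for 16.4% of those transcripts (edgeR). In KO cells 40 of 238 passed, 37 higher (15.5%) and 3 lower, where 28.4% of 10535 transcripts were called, 10.6% higher and 17.8% lower. The median change in TE was 0.14 in ctrl cells (quartiles -0.14 and 0.40) and 0.35 in KO cells (0.05 and 0.57), with all transcripts at -0.01 in both. The KO count was 26 without RNA-seq KO DMSO replicate 1 or 3, and 74, all higher, without scaling beyond library size, which moved the median of all transcripts to 0.22. Of the 37 with higher TE, 34 were also called higher in footprints, and Zfp37, Zfp105, Zfp217, Zfp608, Zfp655 and Zfp866 were called higher in mRNA, footprints and TE.

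**Figure D4:**
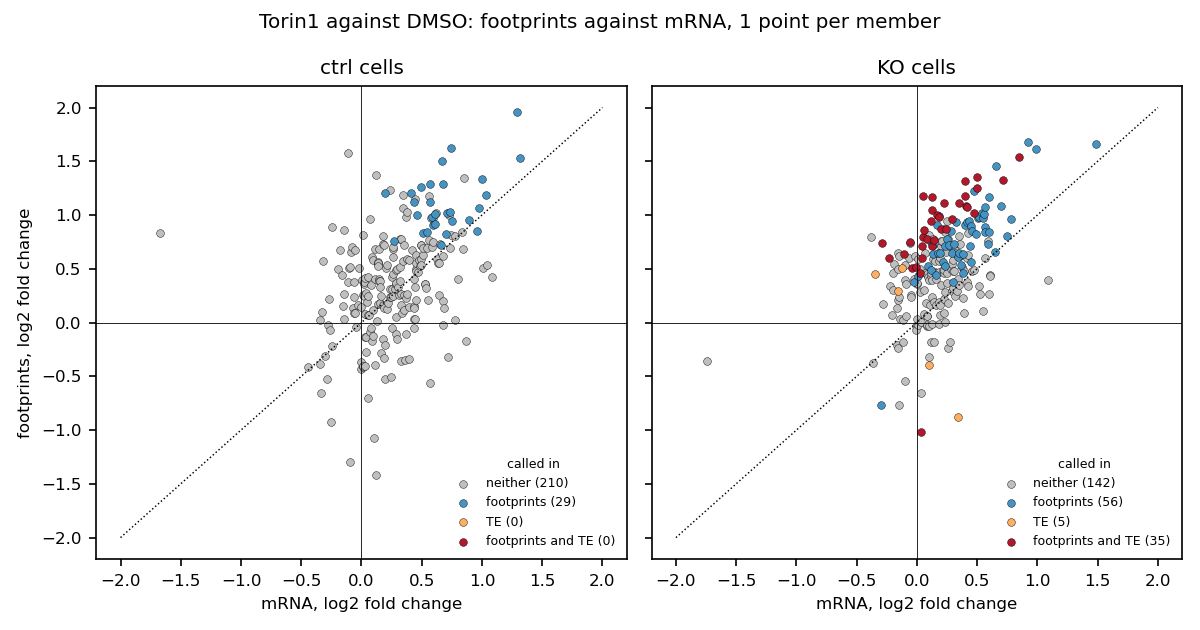
Log2 fold change of footprints (y axis) against that of mRNA (x axis) after Torin1, 1 point per member, in ctrl and KO cells, coloured by the test passed, with a dotted line where both are equal. In KO cells 35 members were called in both footprints and TE, 56 in footprints alone and 5 in TE alone, and in ctrl cells 29 in footprints and 0 in TE.

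The largest rises in TE in KO cells were those of Zfp202, Zfp605, Zfp940 and Zfp652. Zfp202 footprints went from 5.93, 6.90 and 5.56 CPM to 10.6, 16.8 and 16.01, while its mRNA stood at 14.4, 12.4 and 15.3 CPM in DMSO and 12.0, 15.3 and 16.4 in Torin1 (TE 1.13 ± 0.307, adjusted p = 0.00724, edgeR). Zfp652, a transcriptional repressor, went from 7.11, 7.32 and 4.86 CPM to 15.0, 12.9 and 13.1 in footprints, with mRNA at 20.3, 18.9 and 20.8 and then 23.0, 21.8 and 20.8 (TE 0.92 ± 0.259, adjusted p = 0.009, edgeR). In both genes the footprint groups were apart and the mRNA groups touched or overlapped. The KRAB genes Zfp605 and Zfp940 rose in TE by 1.05 ± 0.314 (adjusted p = 0.014) and 1.03 ± 0.276 (adjusted p = 0.00661, edgeR), and Zfp605 was not called without Ribo-seq KO Torin1 replicate 1. Zfp639, whose mRNA fell, gained TE (0.80 ± 0.255, adjusted p = 0.0203, edgeR). TE fell in Zfp467 (-1.21 ± 0.415, adjusted p = 0.0302), Zfp414 (-1.06 ± 0.354, adjusted p = 0.0263) and Zfp598 (-0.50 ± 0.165, adjusted p = 0.0264, edgeR). None of these 3 falls passed without scaling, and each was lost without 3 or 4 of the 12 single libraries. Zfp467 and Zfp414 had 4 to 10 footprints per KO Torin1 library.

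By role, the 8 members that bind or process RNA had 6 called higher in KO footprints (18.5% of all transcripts), 2 in ctrl footprints (5.69%) and 1, Zfp36, in mRNA of each line (2.05% in ctrl and 6.23% in KO cells). Zfp638, an RNA- and DNA-binding nuclear protein, stood at 79.0, 103 and 103 CPM in KO DMSO footprints and 149, 164 and 185 in KO Torin1 (0.77 ± 0.127, adjusted p = 1.08e-05, edgeR), and at 69.0 and 97.3 against 106, 153 and 135 in ctrl cells (0.76 ± 0.195, adjusted p = 0.0125, edgeR). Its mRNA did not pass in either line (0.27 and 0.14). Zfp207 and Zfp326, a subunit of a complex that couples transcription to splicing, rose in KO footprints by 0.46 ± 0.129 (adjusted p = 0.00482) and 0.45 ± 0.135 (adjusted p = 0.00836, edgeR). The 3 members tied to ribosomes did not share a direction, with Zfp593 footprints down, the TE of Zfp598, the ubiquitin ligase of collided ribosomes, down, and Zfp622, a pre-60S factor, at 0.28 ± 0.126 in KO footprints (adjusted p = 0.0737, edgeR).

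Of the 13 developmental and neural regulators listed, 9 were members. Of these, 3 were called higher in ctrl and 4 in KO footprints, none lower, where 5.69% and 18.5% of all transcripts were called higher. The lists overlap: Zfp57, called higher in KO footprints, is also among the KRAB repressors described below. Zfp219 is also among the sequence-specific regulators. Zfp217, a transcriptional corepressor amplified in cancers, went from 34.7 and 53.5 CPM to 62.2, 68.0 and 79.5 in ctrl footprints and from 34.0, 45.0 and 41.3 to 71.8, 82.8 and 96.0 in KO footprints. The log2 fold changes were 0.82 ± 0.213 (adjusted p = 0.0137) and 1.02 ± 0.149 (adjusted p = 1.56e-06, edgeR). Zfp644, a partner of the H3K9 methyltransferase complex, rose by 0.92 ± 0.209 (adjusted p = 0.00537) and 0.94 ± 0.152 (adjusted p = 7.24e-06), and Zfp292 by 0.85 ± 0.270 (adjusted p = 0.0386) and 0.86 ± 0.151 (adjusted p = 2.84e-05, edgeR). The 10 members listed as sequence-specific regulators had 5 called higher in KO footprints and 4 in KO TE, and none in ctrl footprints or TE. The shares of all transcripts called higher were 18.5%, 10.6%, 5.69% and 0.383%, in that order. Zfp410, the activator of the remodeller gene Chd4, rose in KO TE by 0.75 ± 0.189 (adjusted p = 0.00424), Zfp281, a pluripotency regulator, by 0.59 ± 0.188 (adjusted p = 0.0209), Zfp148 by 0.56 ± 0.206 (adjusted p = 0.0436) and Zfp24 by 0.53 ± 0.184 (adjusted p = 0.0327, edgeR).

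Of 7 KRAB repressors known from imprinting and retroelement silencing, 5 were members. Their KO footprints were called higher in 4, against 18.5% of all transcripts, with Zfp445 at 0.72 ± 0.142 (adjusted p = 1.31e-04), Zfp568, a repressor of a placental Igf2 promoter, at 0.94 ± 0.254 (adjusted p = 0.00352), Zfp57 at 0.71 ± 0.269 (adjusted p = 0.0335) and Zfp932 at 0.64 ± 0.219 (adjusted p = 0.0194, edgeR). Zfp445 and Zfp57 both keep methylation at imprinted loci. In ctrl footprints Zfp568 alone was called (0.98 ± 0.308, adjusted p = 0.0366, edgeR), and Zfp57 had a change of 0.73 ± 0.351 that did not pass (adjusted p = 0.171).

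Across the sequence classes the shift in footprints ran higher in KRAB than in other members. The median log2 fold change was 0.56 against 0.24 in ctrl footprints and 0.64 against 0.41 in KO footprints, with 18 of 121 and 11 of 116 members called higher in ctrl and 51 and 37 in KO cells, where 5.69% and 18.5% of all transcripts were. In mRNA the medians were 0.39 against 0.17 in ctrl and 0.28 against 0.13 in KO cells. In KO TE they were 0.37 against 0.29. There 14 KRAB members (11.6%) and 22 others (19.1%) were called higher. The share of all transcripts called higher in KO TE was 10.6%, near that of the KRAB members. Every member called lower after Torin1 in any assay lacked a KRAB box by the pattern used. By fingers, the ctrl footprint medians were 0.20 for 42 members with up to 4, 0.36 for 63 with 5 to 9, 0.51 for 81 with 10 to 14 and 0.68 for 51 with 15 or more, and the KO medians 0.38, 0.47, 0.62 and 0.56. The 81 members with no stretch in common with another gene had medians of 0.25 in ctrl and 0.39 in KO footprints, below those of all members and above those of all transcripts, and the 22 with over 20% shared had 0.59 and 0.76. These classes overlap, and which of KRAB box, finger number and shared sequence goes with the shift was not tested.

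Between KO and ctrl cells in DMSO no member was called in mRNA (edgeR, 7 at an unadjusted p under 0.05, 0 by DESeq2), in footprints (19 and 0) or in TE (9 and 0), where 0.0183%, 0.0279% and 0% of all transcripts were called. An unadjusted p under 0.05 was found for 5.91%, 7.90% and 4.08% of all transcripts (edgeR). The mRNA comparison in DMSO depended on pairing the replicate numbers, which mark passages, though the labels do not say whether the lines were passaged side by side. With the replicate block 13 members were called, all higher in KO cells, where 7.93% of all transcripts were called, and they included Zfp292 (0.63 ± 0.120), Zfp445 (0.51 ± 0.119) and Zfp871 (0.75 ± 0.180). The ctrl DMSO libraries of this comparison are those that chose the members, so these mRNA values are a description. Zfp292 mRNA was 32.0, 18.4 and 40.0 CPM in ctrl DMSO and 52.3, 32.0 and 51.8 in KO DMSO, higher in KO cells at each number while the groups overlapped. The members' median was 0.14 in mRNA, 0.07 in footprints and -0.05 in TE.

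After Torin1 no member was called in mRNA between the lines (edgeR, 26 at an unadjusted p under 0.05, 0 by DESeq2, and 1 without ctrl Torin1 replicate 2), against 1.96% of all transcripts. Of all transcripts, 17.8% had an unadjusted p under 0.05 (edgeR). With the replicate block 9 were called, 8 higher in KO cells and Zfp593 lower (-0.30 ± 0.0786, adjusted p = 0.0179, edgeR), against 9.46%. In footprints 7 of 238 members were called, all higher in KO cells, where 6.04% of 10792 transcripts were called, 2.02% higher and 4.02% lower. The median was 0.26 (quartiles -0.02 and 0.44), with all transcripts at 0.00, and 172 members lay above 0. In 56 members the KO libraries lay above the ctrl libraries with no overlap and in 4 below, where 11.8% and 12.8% of all transcripts did. Without ctrl Torin1 replicate 1 or 3 the count was 3 or 4, without KO Torin1 replicate 2 or 3 it was 3 or 2, and DESeq2, with no adjusted p for 106 members, called 3, Zfp68, Zfp958 and Zfp207.

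Zfp68, a KRAB gene with 9 fingers, had footprints of 38.4, 53.7 and 44.8 CPM in ctrl Torin1 and 67.0, 76.6 and 85.2 in KO Torin1 (0.71 ± 0.156, adjusted p = 0.00331, edgeR). In DMSO they were 32.8 and 29.2 in ctrl and 40.3, 42.2 and 48.6 in KO cells. The mRNA of Zfp68 was 79.6, 71.7 and 64.9 CPM in ctrl Torin1 and 70.8, 76.8 and 73.0 in KO Torin1, so the groups were apart in footprints and overlapped in mRNA. Zfp958, a KRAB gene with 13 fingers, showed the same separation, with 36.9, 40.7 and 45.4 CPM in ctrl Torin1 footprints and 62.6, 71.8 and 66.3 in KO Torin1 (0.70 ± 0.157, adjusted p = 0.00407, edgeR). Both footprint calls held without each of the 6 libraries in turn. These genes were also the members called in TE between the lines (Zfp68 0.68 ± 0.167, adjusted p = 0.0225; Zfp958 0.71 ± 0.181, adjusted p = 0.0286, edgeR), where 2.99% of all transcripts were called. The TE calls were lost without 5 and 6 of the 12 single libraries, and no TE call was left without RNA-seq or Ribo-seq ctrl Torin1 replicate 1. DESeq2 called 4 members in TE, adding Zfp410 as higher and Zfp414 as lower.

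The other members with more footprints in KO cells after Torin1 were Zfp932 (0.89 ± 0.260, adjusted p = 0.0309), Zfp948 (0.68 ± 0.213, adjusted p = 0.0468), Zfp62 (0.55 ± 0.165, adjusted p = 0.0377), Zfp445 (0.46 ± 0.146, adjusted p = 0.0477) and Zfp207 (0.41 ± 0.114, adjusted p = 0.0206, edgeR), of which the last 3 fall outside the rule for named genes and were chosen after their values were seen. Zfp62 footprints were 32.6, 36.6 and 38.0 CPM in ctrl Torin1 and 55.5, 49.8 and 52.0 in KO Torin1, and 20.9, 23.2 and 17.4 in KO DMSO. Zfp932 stood at 10.9, 13.9 and 10.2 CPM against 18.9, 25.4 and 21.7, in a coding sequence that is 78.8% shared, chiefly with Gm15446. Its call and that of Zfp948 were lost with DESeq2 and without most single libraries, 4 and 5 of 6, the ctrl Torin1 replicates 1 and 3 and KO Torin1 replicates 2 and 3 among them.

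Whether the response to Torin1 itself differed between KO and ctrl cells was asked with an interaction term of genotype and treatment, which called no member in mRNA, footprints or TE. At an unadjusted p under 0.05 there were 1, 5 and 6 members (edgeR), where 0.975%, 6.91% and 5.70% of all transcripts were. DESeq2 called 0 members in each but gave no adjusted p for 155 of the 239 members in footprints. After adjustment, edgeR called 0%, 0.114% and 0% of all transcripts. The members' median interaction was -0.08 in mRNA, 0.16 in footprints and 0.23 in TE. The larger number of calls in KO than in ctrl cells after Torin1 is therefore not shown to be a difference between the lines, and the ctrl footprint and TE comparisons had 2 DMSO libraries against 3 in KO cells.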

How the data were processed

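The deposited values are counts, which the authors made by trimming Ribo-seq reads with cutadapt, mapping to mm10 (HISAT2) and to the canonical transcripts of Ensembl (Bowtie2), placing P-sites with riboWaltz, and summing RNA-seq reads or P-sites over each coding sequence, without normalization. Columns with the authors' own fold changes, mean levels, p-values and false discovery rates, and their TE tables, were not used. In the RNA-seq table that sets the DMSO-treated lines side by side a column name was doubled, so the replicates carry no number there, and fits that need one took the same libraries from the Torin1 tables.

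Members and gene lists were chosen with earlier results of these data known. The edgeR quasi-likelihood test was run on 1 pair of conditions at a time (edgeR 4.0.16, limma 3.58.1, R 4.3.3, Python 3.11.15), with TMM scaling, over transcripts that exceeded 1 CPM in every library of 1 condition or of both, and p-values were adjusted by Benjamini-Hochberg over all transcripts tested. All 239 members passed this filter, except that 1 was not tested in the footprint and TE comparisons within KO cells or after Torin1. TE was tested as the assay by condition interaction, in place of the study's RiboDiff, and the difference in response as the genotype by treatment interaction. The fits were tested on simulated counts. Fold changes are given with an SE, which for edgeR is the absolute log2 fold change divided by the square root of the F statistic. This SE follows from the test and is not a separate estimate. Levels are given as CPM after scaling. The replicates are passages of 1 line each, so p-values measure the spread between passages. Named are, in each of 12 pairwise comparisons, up to 4 called members with the largest rise and up to 4 with the largest fall whose groups did not overlap and whose higher group averaged at least 10 counts, and in each list up to 4 with the smallest adjusted p.

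The labels give a passage to each replicate number. Over all transcripts, same-numbered libraries deviated together in mRNA (correlation 0.0566 to 0.206 for Torin1 against DMSO in ctrl, 0.148 to 0.218 in KO cells, 0.0685 to 0.692 for KO against ctrl in DMSO and 0.0276 to 0.275 in Torin1) and less so in footprints (-0.0379 to 0.143). Differently numbered libraries reached 0.0492, -0.0413, 0.388 and 0.0816 in the same mRNA comparisons. Between the lines the ranges thus overlapped. Among the members they overlapped in mRNA except for Torin1 in KO cells. Fingers and KRAB boxes were found by pattern in translated GENCODE M21 coding sequences. The KRAB pattern was broadened after the data were seen, and a stricter one finds 97 of the 121. Alternatives were another scaling, no scaling, no filter, DESeq2 1.42.0, the replicate block, leaving out each library, and members chosen in KO DMSO. Ribo-seq counts are low, and the counting error of 10 or fewer footprints limits single genes.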

Additional observations from a re-analysis of the deposited data

How the results depend on the processing

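The low Ribo-seq depth limits single members. DESeq2 called 36 members in ctrl mRNA after Torin1, 7 in ctrl footprints, 67 in KO footprints (24 of the 91 lost), 3 in footprints and 4 in TE for KO against ctrl in Torin1. The replicate block called 64 in ctrl mRNA and 65 in KO mRNA after Torin1, 13 in mRNA between the lines in DMSO (Zfp292, Zfp445 and Zfp871 among them) and 9 in Torin1 (Zfp593 among them), took the call of Zfp36 in ctrl footprints, and took no call of another gene named by the rule. Without scaling, 54 were called in ctrl footprints, 156 in KO footprints (155 higher) and 74 in KO TE after Torin1. The medians of all transcripts moved up there too, to 0.23, 0.26 and 0.22, so these counts are not particular to the members. Shares of all transcripts called are not given for the fits with DESeq2, without scaling or without a library. They are not given for footprints with the replicate block either. Leaving out each library in turn gave 4 to 41 in ctrl mRNA, 13 to 45 in KO mRNA, 4 to 31 in ctrl footprints, 70 to 84 in KO footprints, 0 to 1 in ctrl TE and 26 to 56 in KO TE after Torin1. For KO against ctrl it gave 0 to 1 in mRNA, 2 to 7 in footprints and 0 to 3 in TE in Torin1, and 0 in DMSO and in the interactions. The median for KO against ctrl in DMSO changed sign in footprints over the 81 members with no shared stretch (-0.093), an alternative chosen after seeing the data, and in TE, where leaving out each library gave -0.156 to 0.014, without RNA-seq ctrl DMSO replicate 2. The causes were not tested. Chosen by their level in KO DMSO, 252 transcripts would be members (238 in common), and with at least 1 or 5 CPM 282 or 202.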

Other observations

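The corepressors and histone H3K9 methylation factors with which KRAB proteins work moved in both directions. Of 32 listed genes, 31 were in the tables, and in KO footprints after Torin1 13 were called higher and 4 lower (edgeR, median 0.15), against 18.5% and 22.1% of all transcripts. Mta1, a subunit of the NuRD complex, lost footprints in ctrl cells (-1.40 ± 0.184, adjusted p = 2.27e-05, edgeR) and KO cells (-1.38 ± 0.144, adjusted p = 1.92e-09), with mRNA changes of 0.01 and 0.06 that did not pass. Atrx, a chromatin remodeller, gained footprints in both lines (1.00 ± 0.177, adjusted p = 6.02e-04, and 1.08 ± 0.141, adjusted p = 1.88e-07, edgeR). Daxx, the partner of Atrx in histone deposition, rose in TE in KO cells (0.98 ± 0.177, adjusted p = 1.65e-04, edgeR), as did Mta2 (0.74 ± 0.136, adjusted p = 1.90e-04). Trim28 itself had a footprint change of -0.28 ± 0.118 in KO cells that did not pass (adjusted p = 0.0615), and Setdb1, the H3K9 methyltransferase that Trim28 recruits, rose by 0.46 ± 0.125 (adjusted p = 0.00376, edgeR).

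The 49 numbered Zfp transcripts under the threshold had medians after Torin1 of 0.43 in ctrl and 0.31 in KO mRNA, and of 0.58 in ctrl and 0.81 in KO footprints, above those of the members. Transcripts outside the Zfp names whose coding sequence holds a C2H2 finger had a median of 0.31 in ctrl mRNA, with 21 of 278 called higher (2.05% of all transcripts), and of 0.46 in KO footprints, with 96 of 276 called higher and 20 lower (18.5% and 22.1% of all transcripts, edgeR). In TE their medians were -0.03 in ctrl and 0.23 in KO cells, where the members had 0.14 and 0.35. No test of the difference between these groups and the members was run.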
